A study of Drosophila melanogaster with 42 samples.

Results

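Heads were compared with the other parts of the body in adult male flies whose fathers had not been restrained. The 10 libraries used here, of 42 in the series, were all those labelled as unrestrained sons of dATF-2KO fathers, 5 made from heads and 5 from the body without the head. The series asked whether restraint stress of a father, an immobilisation of 10 hours given 3 times, changes gene expression in his sons, and dATF-2 (Atf-2) encodes a stress-activated transcription factor linked to heterochromatin. The fathers carried w1118 and dATF-2KO, the mothers carried w1118, and the sons were grown at 25 °C. The w1118 allele, a loss of the white eye pigment transporter, was therefore shared by all flies in both groups. The sons were 5 to 6 days old by the sample labels. Each library was a pool of 50 males, frozen and shaken so that the heads broke off. Whether a head pool and a body pool with the same number came from the same flies was not given. Nor was it given whether the pools of a group had separate parents.

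A fly's head holds the compound eyes, the ocelli, the brain, the antennae and mouthparts, and a layer of fat body. The other parts hold the ventral nerve cord in the thorax, the flight and leg muscles, the gut, the Malpighian tubules that form urine, most fat body, the oenocytes that make cuticular hydrocarbons, and the male reproductive tract. In that tract the testis makes sperm, the accessory glands secrete the bulk of the seminal proteins, and the ejaculatory duct and bulb add further secretions, among them a mating plug. Vision in flies starts with rhodopsin, an opsin protein bound to a retinal pigment, which acts through a G protein, phospholipase C and TRP channels. Many genes of each of these organs are barely used elsewhere, so that a head and a body library can be read organ by organ.

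The unit was the FPKM, fragments per kilobase of transcript, scaled to the number of fragments in the library. Heads and other parts stood in tables that were scaled separately, so no p-value was computed between them. A gene was instead called higher on 1 side when the mean log2(FPKM + 0.5) differed by at least 3, which is 8-fold on that scale, and the 5 head values did not overlap the 5 values of other parts. Each log2 difference below is heads minus other parts on that scale, with its standard error (SE, n = 5 and 5). Such a difference understates the change of genes near 0. The comparison covered the 12564 genes, of 15061 present in both tables, with a mean of at least 1 FPKM over the 10 libraries. Absolute read counts were not in the tables. The steps between low values gave a scaling factor for each library, relative to head replicate 1. It lay between 0.877 and 1.06 in heads and between 0.824 and 1.11 in other parts. Because the tables were scaled separately, these factors do not show that both sides were sequenced to equal depth. FPKM values summed to 681793 to 716243 in heads and to 1014450 to 1055280 in other parts. In a mixture of organs, fewer cells of a type and less RNA per cell cannot be told apart. Pearson's r of the log2 values, across genes, which are not independent replicates, was 0.964 to 0.971 between head libraries, 0.953 to 0.963 between libraries of other parts and 0.258 to 0.304 between the sides. Replicate 3 of the other parts stood apart most often, and without it the counts of genes below were 537 and 2637 in place of 532 and 2621. Atf-2, the gene deleted in the fathers, had 70.4, 70.9, 69.9, 75.0 and 71.8 FPKM in heads, against 13.1, 11.1, 11.2, 12.8 and 10.9 FPKM in other parts (log2 difference 2.55, SE 0.06). Heads of unrestrained w1118 fathers' sons, from a table scaled on its own, held 71.7 to 74.7 FPKM of Atf-2. The sons of dATF-2KO fathers had w1118 mothers, so a maternal copy of the gene remained. The locus given for Atf-2 holds 5 genes. With that and the separate scaling, whether its level differed between the paternal genotypes was not tested.

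The bodies held many more genes set apart from the heads than the heads did from the bodies. Of the 12564 genes, 532 were higher in heads (4.23%) and 2621 were higher in other parts (20.9%), a ratio of 4.93. These percentages are the background for the calls of every list below. The share of all genes without overlap alone, at any fold, was not counted. Small differences can lack overlap too. In 50 of 87 cytosolic ribosomal protein genes, at a median of -0.16, each head value lay below each body value. A further 41 genes passed 8-fold but had overlapping libraries. At the other end, 6282 genes (50.0%) lay within 2-fold of each other. The median log2 difference was -0.22 over all genes compared and 0.04 over those with at least 1 FPKM in both groups. A mean of at least 1 FPKM was reached by 9890 genes in heads and 12258 in other parts. Of these, 9268 reached it in both, 622 in heads alone and 2990 in other parts alone. The body side also went further: 59 genes were higher in heads by 64-fold or more, against 1114 in other parts, and 5 genes called higher in heads were listed at 0 in each library of other parts, against 287 in the opposite case. The genes nearest the threshold were Ef1alpha100E (3.01, called) and beat-VI (2.999, not called) on the head side, and CG34332 (-3.001, called) and isopeptidase-T-3 (-2.998, not called) on the body side.

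**Figure D1:**
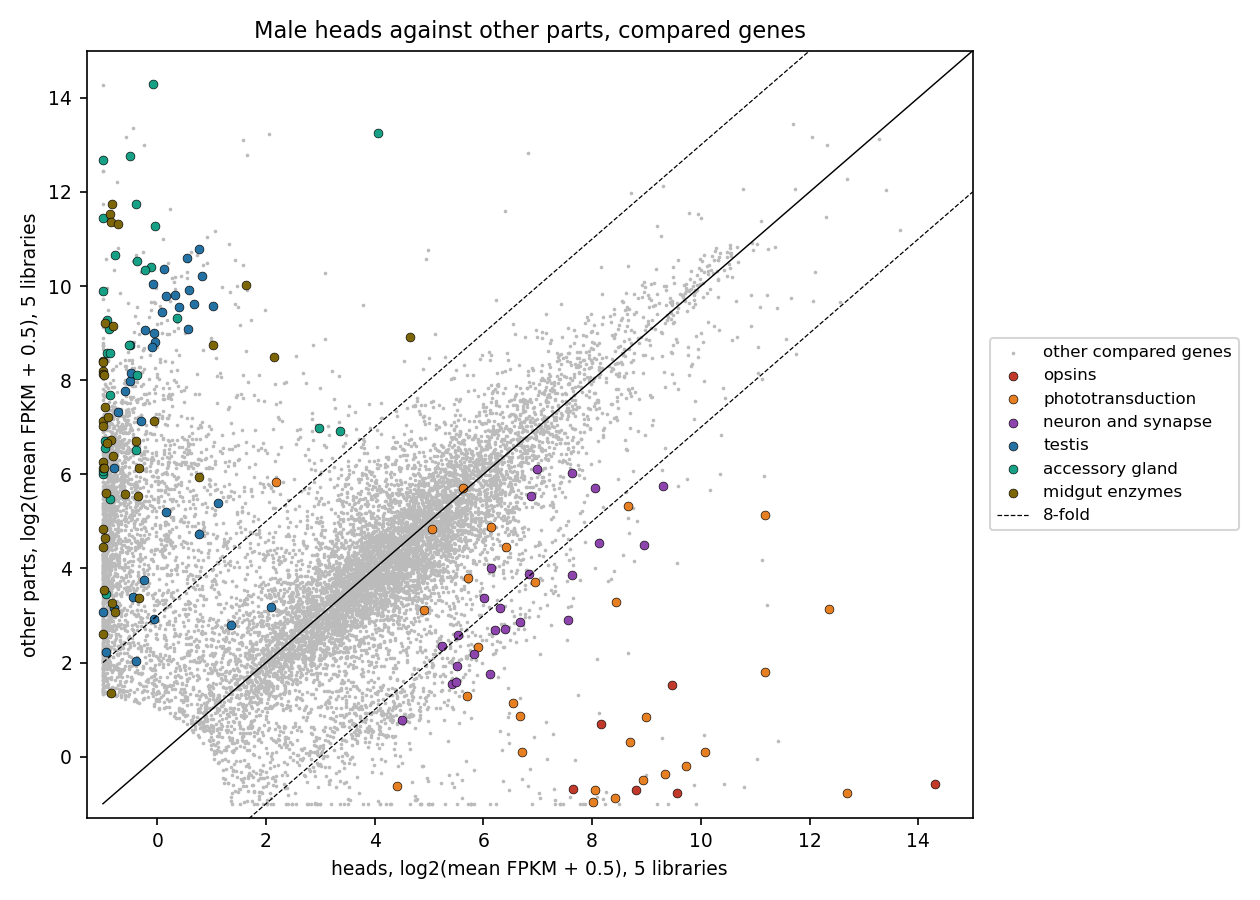
Mean level of each compared gene in heads (x axis) and in other parts (y axis), both as log2(mean FPKM + 0.5) over 5 libraries, with 6 gene lists coloured; the solid line marks equal levels and the dashed lines 8-fold. Opsin and phototransduction genes lie to the lower right, while testis, accessory gland and midgut genes lie along the left edge, where heads are at or near 0 FPKM.

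Genes higher in heads made up 15.9% to 16.4% of the summed FPKM in heads and 0.296% to 0.478% in other parts. Genes higher in other parts made up 0.314% to 0.428% of the sum in heads and 40.9% to 44.3% in other parts. These shares are a description, since the genes were chosen for the difference. The lists of organ genes used below covered 88 of the 532 genes and 179 of the 2621 genes.

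The eye gave several of the most abundant genes among those higher in heads, beside the antimicrobial peptide genes Mtk and Dro, described below. All 6 opsin genes were higher in heads, with log2 differences of 7.49 to 14.92 and a median of 8.92, against the -0.22 of all genes. ninaE, the rhodopsin of the outer photoreceptors R1 to R6, at chr3R:15711968-15713928 (dm3), had 19400, 20706, 20951, 19918 and 20798 FPKM in heads, against 0.0828, 0.188, 0.0838, 0.105 and 0.363 FPKM in other parts (14.92, SE 0.11). It was the most abundant gene of all those called higher in heads, and also the most different. The opsins of the inner photoreceptors were at 680 FPKM or more in heads for the UV opsins Rh3 and Rh4, while Rh5 (blue) ranged from 280 to 293 FPKM and Rh6 (green) from 434 to 457 FPKM. Rh2, the opsin of the ocelli, ranged from 194 to 203 FPKM in heads and from 0.0841 to 0.169 FPKM in other parts. Other parts held at most 0.363 FPKM of ninaE, Rh2, Rh3 and Rh6, but 2.01 to 2.77 FPKM of Rh4 and 0.908 to 1.495 FPKM of Rh5. The Rh4 value is uncertain, since 4 genes share its locus in the table.

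Most of the machinery that turns light into a current followed the opsins. Of 29 phototransduction genes compared, 22 were higher in heads and 1 in other parts, and the median log2 difference was 5.82. Arr2, the main arrestin, which switches activated rhodopsin off, had 6450, 6761, 6700, 6565 and 6677 FPKM in heads, against 0.0859, 0.195, 0.0435, 0.0727 and 0.0418 FPKM in other parts (13.47, SE 0.07). Arr1, a second arrestin, lay between 5112 and 5514 FPKM in heads and between 6.93 and 9.74 FPKM in other parts. The channels and their scaffold behaved alike: trp (9.71), trpl (9.98), the kinase-myosin ninaC (9.92) and the scaffold inaD (8.98) were all higher in heads. Pdh, a retinal pigment cell dehydrogenase, lay between 2252 and 2369 FPKM in heads and between 2.37 and 3.72 FPKM in other parts.

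Some genes of this list differed less than its median of 5.82. norpA, the phospholipase C, reached 5.16, the G protein alpha subunit Galpha49B 3.34 and the diacylglycerol kinase rdgA 3.24. Calx, a sodium-calcium exchanger, had a difference of -0.09, and rdgB, a lipid transfer protein, had 1.26. Also not called were pinta (0.21), inaE (1.80), laza (1.92) and santa-maria (1.95). The exception in direction was ninaD, a scavenger receptor that takes up carotenoids from food. It had 3.45, 3.74, 4.22, 4.91 and 3.97 FPKM in heads, against 57.5, 61.6, 49.5, 57.0 and 56.0 FPKM in other parts (-3.65, SE 0.09). Every body value of ninaD was thus above every head value. retinin, a protein of the corneal lens that stands in none of these lists, had 1741 to 1783 FPKM in heads and 0.0824 to 0.221 FPKM in other parts (11.44, SE 0.06).

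Eye pigment and lens genes set the heads apart far less. Of 8 compared, among them the lens gene Cry (0.32), 1 was higher in heads, with a median of 0.54. That gene was bw, an ABC transporter for red pigment precursors, with 34.8 to 38.4 FPKM in heads and 1.29 to 1.76 FPKM in other parts (4.16, SE 0.07). st (0.47), v (0.14) and p (0.61), a transporter, an enzyme and a trafficking factor of pigment formation, were within 2-fold. cd (2.79), with means of 5.60 FPKM in heads and 0.388 FPKM in other parts, and g (1.27) differed more but were not called. w, the white gene, was too low to be compared, with means of 0.122 FPKM in heads and 1.57 FPKM in other parts. Its locus in the table is shared by 24 genes, which leaves the body value uncertain.

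The nervous system was the next group. Of 24 neuron and synapse genes, 15 were higher in heads, and the median log2 difference was 3.57. Each head value lay above each body value in all 24, a count without a background over all genes. n-syb, the synaptobrevin of synaptic vesicles, had 476, 495, 501, 504 and 491 FPKM in heads, against 21.2, 22.04, 22.5, 22.4 and 22.8 FPKM in other parts (4.44, SE 0.02). Syt1, the calcium sensor of vesicle release, differed by 3.60, Appl, the fly amyloid precursor protein, by 4.65, and brp, the active zone scaffold, by 3.51. The sodium channel para (3.59) and the calcium channel cac (3.88) were also higher in heads. elav, the RNA-binding protein used to mark neurons, stood at 2.95, just below the threshold, and passed it at 3.02 without replicate 3 of the other parts. The smallest difference belonged to Csp, a chaperone of synaptic vesicles, at 0.87. No neuron and synapse gene was near 0 in other parts, which contain the ventral nerve cord. The lowest body mean in the list was that of eag, a potassium channel, at 1.21 FPKM.

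Transmitter genes formed a graded series, from 5.22 for Hdc to 0.27 for ple. All 14 had positive differences, 6 were higher in heads, and the median was 2.57. Hdc, the enzyme that makes histamine, the transmitter of photoreceptors, had 23.0, 25.6, 25.5, 25.4 and 25.9 FPKM in heads, against 0.244, 0.278, 0.133, 0.159 and 0.128 FPKM in other parts (5.22, SE 0.07). The acetylcholine genes Cha (4.14), VAChT (4.23) and Ace (3.19) were higher in heads too, as were the glutamate transporter VGlut (3.34) and the GABA transporter VGAT (3.10). Gad1, which makes GABA, stood at 2.55. Among other monoamine genes, Vmat stood at 2.59, the dopamine transporter DAT at 1.97, and ple, the tyrosine hydroxylase also used in cuticle tanning, at 0.27.

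Neuropeptides differed widely among themselves. Of 31 compared, 12 were higher in heads and 1 in other parts, and the median was 1.99. Ilp2, an insulin made by a few cells of the brain, had 165, 155, 155, 159 and 154 FPKM in heads, against 0, 0.282, 0.126, 0.210 and 0 FPKM in other parts (8.01, SE 0.13). The values of Ilp2 in other parts were therefore at or near 0. Dsk (7.29), hug (6.48) and Crz (5.81), peptides of small groups of brain or subesophageal cells, followed, and Pdf, the peptide of the clock neurons, stood at 4.08. Nplp3 was the most abundant peptide gene called, with 1231 to 1382 FPKM in heads and 104 to 123 FPKM in other parts (3.55, SE 0.05). Akh ran the other way. This glucagon-like hormone, made by the corpora cardiaca at the front of the gut, had 0.164, 0.550, 0.627, 0 and 0 FPKM in heads, against 39.7, 40.5, 39.3, 45.7 and 43.0 FPKM in other parts (-5.86, SE 0.26). Nplp2, the most abundant member, was at 9549 to 10146 FPKM in heads and 8679 to 9420 FPKM in other parts. CCHa2, CCHa1 and ETH were likewise within 2-fold.

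Of 14 glial genes, 4 were higher in heads, with a median of 2.25. repo, the transcription factor that defines glia, had 29.7 to 30.7 FPKM in heads and 3.06 to 3.51 FPKM in other parts (3.01, SE 0.03). It stood on the threshold, since without replicate 1 of the other parts it was 2.99 and without replicate 5 it was 2.999. The others were Eaat2 (3.79), wrapper (3.38) and e, the ebony enzyme that inactivates histamine and dopamine (4.38). Tret1-1, a trehalose transporter, had a negative difference of -0.59. None of the 8 clock genes passed 8-fold. per was nearest at 2.85, while Clk had a negative value of -1.26. The time of day at which the flies were frozen was not given.

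Of 3 genes listed as markers of the head fat body, 2 were higher in heads. Libraries of whole heads do not show which tissue held their RNA. sxe2, a lipase regulated by the sex determination pathway, was at 425 to 446 FPKM in heads and 15.9 to 19.2 FPKM in other parts (4.62, SE 0.05). Cyp4d21, a cytochrome P450 also called sxe1, stood at 3.88. The third of the 3 genes listed, to (takeout), went the other way, with 8.57 to 10.3 FPKM in heads and 29.8 to 32.3 FPKM in other parts (-1.67, SE 0.05). Lsp2, a storage protein, was the only general fat body gene called, with 551 to 684 FPKM in heads and 55.3 to 82.4 FPKM in other parts (3.20, SE 0.11). The other general fat body genes, 8 of 9 compared, were not called, and the median of the list was 0.35.

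Most receptor genes of smell and taste, and most of the listed olfactory genes, were low in these heads. Of 29 olfactory genes only 12 reached the minimum level, and 1 of them was higher in heads. That was Obp28a, an odorant-binding protein, with 9.81 to 13.3 FPKM in heads and 0 to 0.469 FPKM in other parts (4.14, SE 0.19). Orco, the co-receptor that most olfactory neurons of the antenna and palp need, was at 1.76, 2.17, 1.38, 2.27 and 1.75 FPKM in heads, against 0.227, 0.257, 0.153, 0.320 and 0.163 FPKM in other parts. Its groups did not overlap, yet its difference of 1.70 stayed below 8-fold. Over the whole Or family only 10 of 60 genes reached the minimum and none was called, and for the taste receptors of the Gr family it was 6 of 59, with none called. The ionotropic receptors, with 8 of 59, gave 1 call, in the body (Ir94d, -4.15). Most receptors of smell and taste were thus close to 0 on both sides.

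Members of the odorant-binding protein family were called on both sides. Of 33 Obp genes compared, 7 were higher in heads, against 4.23% of all genes, and 6 in other parts, a share near the 20.9% of all genes. The head set was led by Obp19d, with 2168 to 2317 FPKM in heads and 15.7 to 20.5 FPKM in other parts (6.97, SE 0.07), and by Obp49a (6.85), Obp56h (5.92) and Obp19b (5.57). The body set included Obp51a, with 0 to 0.564 FPKM in heads and 1534 to 1776 FPKM in other parts (-11.03, SE 0.20), and Obp22a (-8.23), Obp99a (-7.33) and Obp56f (-5.94).

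Some transcription factors that lay out the head in development differed between the sides of the adult. Of 12 head patterning genes compared, 4 were called, all higher in heads, with a median of 2.25. Each head value lay above each body value in all 12, again without a background over all genes. gl (glass), which photoreceptors need, had 24.0 to 28.0 FPKM in heads and 0 to 0.0468 FPKM in other parts (5.68, SE 0.05). The Pax6 genes toy (5.02) and ey (4.17) and the head gap gene oc (3.07) were also higher in heads. Optix (0.49) and so (1.08), which act in the eye field, were not.

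The 8 Hox genes give segments their identity in an order along the chromosome. After lab, the sign of the difference ran from positive to negative along that order. All lie on chromosome arm 3R. lab, the most anterior, did not separate the sides, with 1.78, 1.48, 1.96, 1.86 and 2.14 FPKM in heads, against 2.14, 1.85, 1.75, 2.36 and 1.61 FPKM in other parts. pb followed with 1.28. Dfd, which acts in the maxillary segment of the head, had 11.9, 13.1, 12.6, 13.1 and 12.4 FPKM in heads, against 0.0909, 0.0516, 0.115, 0.0769 and 0.111 FPKM in other parts (4.48, SE 0.04). It was the only Hox gene called higher in heads. Scr, of the labial and first thoracic segments, stood at 2.22, with 5.00 to 5.30 FPKM in heads and 0.565 to 0.861 FPKM in other parts. Antp, of the thorax, reversed the sign at -2.22, with 0.441 to 0.733 FPKM in heads and 4.31 to 4.85 FPKM in other parts. Ubx of the posterior thorax had 0.164, 0.196, 0.161, 0.122 and 0.250 FPKM in heads, against 7.87, 7.87, 9.15, 7.88 and 8.11 FPKM in other parts (-3.68, SE 0.06). The abdominal genes were close to 0 in heads, with at most 0.0145 FPKM of abd-A and 0.0154 FPKM of Abd-B. In other parts abd-A ranged from 4.82 to 5.90 FPKM and Abd-B from 10.2 to 11.7 FPKM. Between Scr and Abd-B the sign changed only at Antp.

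**Figure D2:**
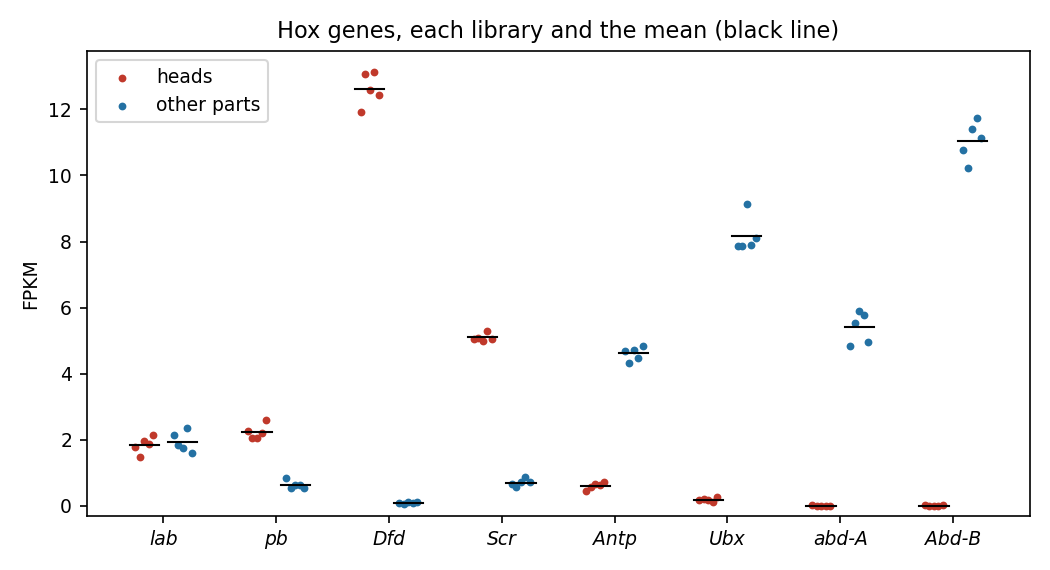
FPKM of the 8 Hox genes in each library, in their order along the chromosome, with heads left (red) and other parts right (blue) for each gene and a black line at the mean of 5 libraries. Dfd reaches 11.9 to 13.1 FPKM in heads and Abd-B 10.2 to 11.7 FPKM in other parts, and lab overlaps between the sides.

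On the body side the accessory glands stood first. All 29 accessory gland genes were higher in other parts, with a median of -9.47, and their summed level was 32.6 to 43.9 FPKM in heads and 57548 to 66941 FPKM in other parts. Mst57Db, a seminal peptide at chr3R:21656444-21656636 (dm3), had 0, 0, 2.26, 0 and 0 FPKM in heads, against 16650, 22048, 20613, 21039 and 19652 FPKM in other parts (-14.79, SE 0.50). Acp70A, the sex peptide that changes the behaviour of mated females, was listed at 0 in 4 head libraries and at 1.32 FPKM in 1, against 2906, 3873, 3222, 4003 and 3197 FPKM in other parts. Acp95EF had the highest head level of the list, 12.6 to 21.0 FPKM, beside 9047 to 10454 FPKM in other parts. Of the 44 genes with an Acp or Sfp symbol that were compared, all 44 were higher in other parts. Sfp87B, with 0.269 to 0.545 FPKM in heads and 7900 to 8506 FPKM in other parts, was the most abundant of the Sfp symbols. Sfp60F, Sfp96F and Acp98AB were listed at 0 in each head library and ranged from 4557 to 7196 FPKM in other parts. Several of the most abundant genes have no such name: CG42782, the second most abundant of all genes called in the body, was listed at 0 in each head library and ranged from 17648 to 21924 FPKM in other parts.

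The ejaculatory duct and bulb gave 3 calls of 6 genes. PebII, a protein of the mating plug, had 0.362, 0, 0, 0 and 0.823 FPKM in heads, against 10167, 11139, 9773, 10837 and 10625 FPKM in other parts (-13.92, SE 0.29). Peb (-12.94) and the duct peptide Dup99B (-10.39) followed. PebIII bore the family name but was above its body level in every head library, with 4289 to 4447 FPKM in heads and 1170 to 1294 FPKM in other parts (1.81, SE 0.03). Est-6, an esterase of the duct, was at 389 to 415 FPKM in heads and 720 to 742 FPKM in other parts.

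The testis was the next clear organ. Of 36 testis genes compared, 33 were higher in other parts, the median was -8.57, and the other 3 (can, mia and achi) also lay below their body level in each head library. betaTub85D, the tubulin of the sperm tail, at chr3R:5234105-5236004 (dm3), had 1.29, 0.480, 1.11, 1.06 and 0.940 FPKM in heads, against 579, 585, 472, 558 and 518 FPKM in other parts (-8.55, SE 0.16). Mst87F, a structural protein of sperm, was at 0.688 to 1.74 FPKM in heads and 1481 to 1945 FPKM in other parts, and Mst84Dc had the largest difference of the list at -10.29. Mst77F and the protamine genes Mst35Ba and Mst35Bb, whose products pack sperm DNA, stood at -8.59, -8.39 and -8.64. S-Lap1, a leucyl aminopeptidase of sperm, reached 972 to 1303 FPKM in other parts. The meiotic arrest genes, which switch on the spermatocyte programme, were far less abundant: aly had a body mean of 4.19 FPKM (-3.16), sa 9.94 FPKM (-3.85) and can 3.61 FPKM (-2.44). The summed level of the list was 21.7 to 27.8 FPKM in heads and 14227 to 18066 FPKM in other parts, with replicate 3 of the other parts the lowest.

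Genes of the Y chromosome and of the early germline had body levels of at most 17.2 FPKM on average. Of 4 Y-linked genes compared, 3 were higher in other parts. Pp1-Y2 had at most 0.0498 FPKM in heads and 9.55 to 12.7 FPKM in other parts (-4.57, SE 0.08). ARY had at most 0.0650 FPKM in heads and 15.1 to 18.3 FPKM in other parts (-5.10, SE 0.06). The giant fertility genes kl-2, kl-3 and kl-5 had body means of 1.39, 1.72 and 1.95 FPKM and did not reach the minimum over the 10 libraries. Of 8 early germline genes only bgcn, which acts in the change from stem cell daughter to spermatocyte, was called (-4.02). nos (-2.94), AGO3 (-2.66) and vas (-2.50) were below the threshold, but passed it with a pseudocount of 0.1 (-4.99, -3.21 and -3.74, in that order). tj, a factor of the somatic cells of the gonad, had a positive difference of 2.55, with 4.13 to 5.10 FPKM in heads and 0.280 to 0.515 FPKM in other parts, and passed 8-fold with a pseudocount of 0.1 (3.31). piwi stood at -0.05 (SE 0.06).

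The gut was as clear as the glands. Of 41 midgut enzyme genes compared, 40 were higher in other parts and the median was -7.21. Their sum was 34.7 to 37.96 FPKM in heads and 17465 to 18948 FPKM in other parts, and 13 of the listed genes were at 0 in each head library. Jon65Aiv, a serine protease of the midgut, had 0.0774, 0, 0.0741, 0.0732 and 0.0881 FPKM in heads, against 3531, 3437, 3376, 3261 and 3529 FPKM in other parts (-12.57, SE 0.05). The trypsins alphaTry (-12.39) and betaTry (-12.21) share a locus in the table with 4 other genes and are near-identical copies, so their separate values are uncertain. The maltase Mal-A1 was at 2.37 to 2.81 FPKM in heads and 979 to 1138 FPKM in other parts. Npc1b, which takes up dietary sterol, stood at -4.10. The amylases kept the most in heads, at a mean of 24.5 FPKM for Amy-d and 3.92 FPKM for Amy-p.

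The Malpighian tubules gave 4 calls of 10 genes, with a median of -2.15. The zinc transporter ZnT35C had 0.0401 to 0.236 FPKM in heads and 26.2 to 29.6 FPKM in other parts (-5.42, SE 0.09), followed by the transporters Oatp58Db (-5.28) and Oatp58Da (-4.74). Uro, the urate oxidase, was listed at 0 in each head library and ranged from 14.3 to 18.9 FPKM in other parts. Oatp58Dc, another transporter of that cluster, was within 2-fold at -0.33.

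**Figure D3:**
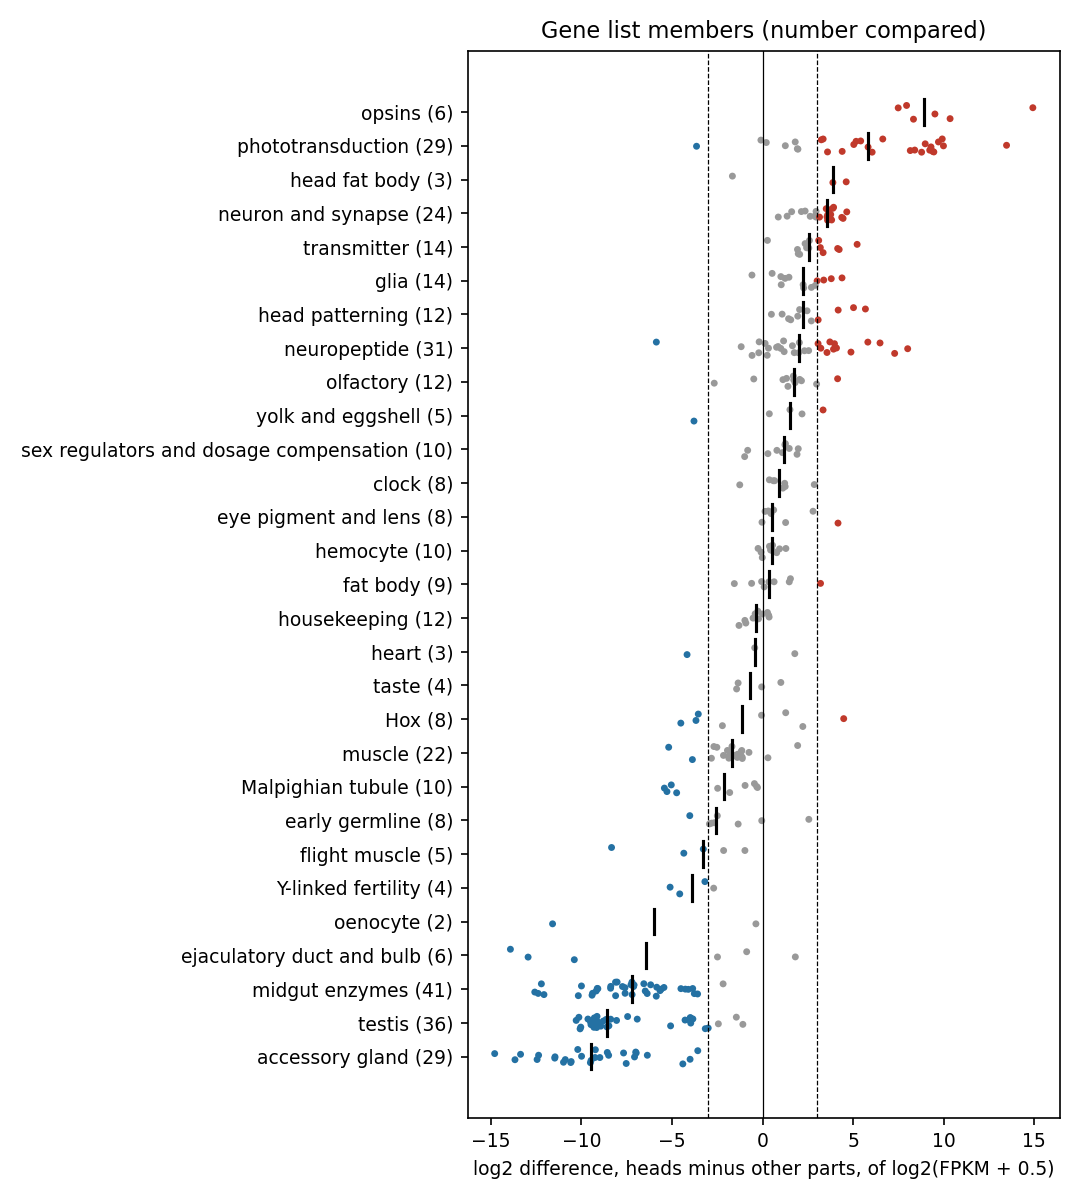
Log2 difference, heads minus other parts, of every compared member of 29 gene lists (x axis), 1 row per list with the number compared in brackets and a black bar at the median; red and blue points lie at or beyond 8-fold (dashed lines). Opsins stand at the top with a median of 8.92 and accessory gland genes at the bottom with a median of -9.47.

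Muscle genes were present on both sides and mostly lower in heads. Of 22 general muscle genes 2 were called, both in the body, a smaller share than the 20.9% of all genes. The median was -1.70. Each head value lay below each body value in 20 of the 22, a count without a background over all genes. Mhc, the muscle myosin heavy chain, stood at -1.15 and the actin Act57B at -0.75. The called genes were the troponin C TpnC47D (-5.18) and the actin Act79B, with 21.4 to 24.3 FPKM in heads and 324 to 376 FPKM in other parts (-3.87, SE 0.05). TpnC25D, another troponin C, ran the other way at 1.94. Of 5 genes of the indirect flight muscle, which fills the thorax, 3 were higher in other parts. TpnC4, its stretch-activated troponin C, had 0.200, 0.224, 0.161, 0.379 and 0.191 FPKM in heads, against 230, 218, 256, 225 and 246 FPKM in other parts (-8.34, SE 0.08). fln (flightin) stood at -4.35 and Mf (myofilin), with 394 to 441 FPKM in heads and 3962 to 4206 FPKM in other parts, at -3.27. Act88F, the flight muscle actin, did not reach 8-fold (-2.15).

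The smaller organs were covered by few genes. Cyp4g1, the P450 of oenocytes that makes hydrocarbons, had 3.83, 3.47, 1.75, 1.92 and 1.42 FPKM in heads, against 7951, 7659, 11284, 8236 and 8951 FPKM in other parts (-11.59, SE 0.25). The locus given for it in the table holds 17 genes. desat1, a desaturase used by oenocytes and fat body, was within 2-fold at -0.37. Hand, a factor of the heart and its pericardial cells, had 0.160 to 1.02 FPKM in heads and 17.6 to 21.6 FPKM in other parts (-4.17, SE 0.24). The other heart genes did not follow Hand. mid stood at 1.78, with each head value above each body value, Sur at -0.43, and tin and prc did not reach the minimum, so that the median of the 3 genes compared was -0.43.

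Genes of blood cells and general functions stayed within 8-fold. None of 10 hemocyte genes and none of 12 housekeeping genes was called, with medians of 0.49 and -0.34. Hml, a clotting protein of hemocytes, had a difference of 0.94. RpL32, a ribosomal protein often used as a reference, had 987 to 1086 FPKM in heads and 1391 to 1532 FPKM in other parts (-0.53, SE 0.04), and eIF-4a was at 0.27. These small differences depend on the scaling: with the libraries set to equal FPKM sums, the median of all genes moved to 0.33 and that of the housekeeping list to 0.24. Of 87 cytosolic ribosomal protein genes compared, 81 were within 2-fold and 6 were higher in other parts, while the median of the family was -0.16, and 0.43 with equal FPKM sums. The 6 were each from a pair of genes for the same protein: RpL10Aa, RpL37b, RpS10a, RpS19b, RpS28a and RpS5b. All 72 mitochondrial ribosomal protein genes lay within 2-fold.

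**Figure D4:**
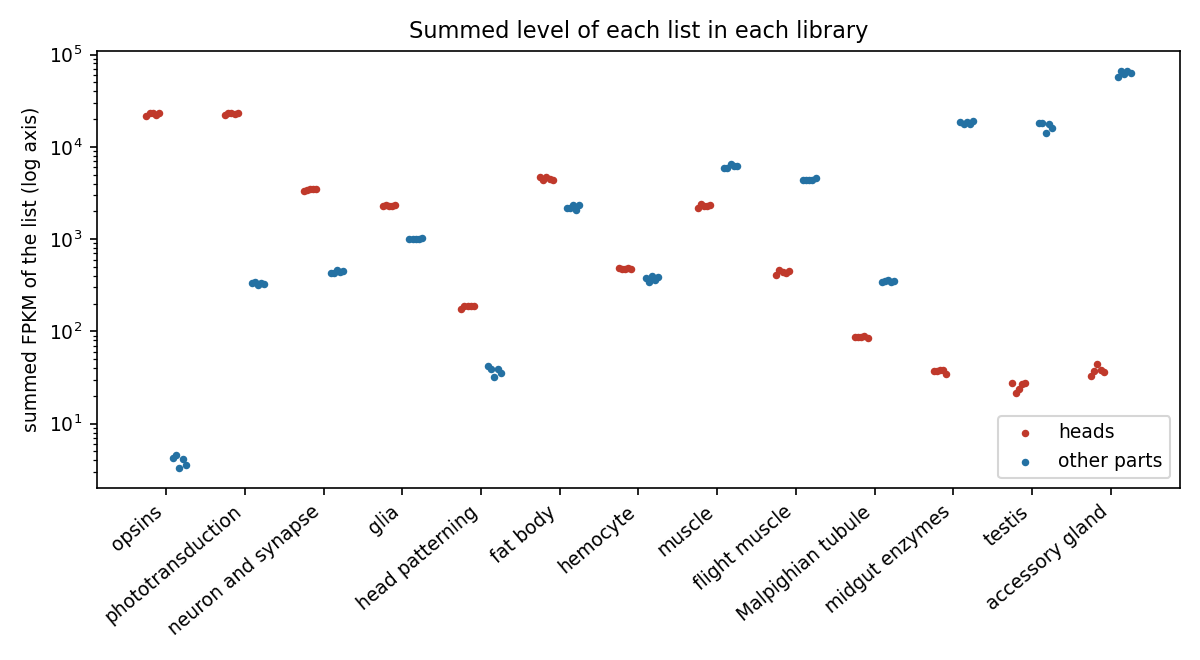
Summed FPKM of 13 gene lists in each library on a log axis, heads left (red) and other parts right (blue) for each list. Opsins reach 21744 to 23373 FPKM in heads and 3.32 to 4.56 FPKM in other parts, accessory gland genes 32.6 to 43.9 FPKM in heads and 57548 to 66941 FPKM in other parts, and the fat body and hemocyte lists stay much closer.

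Genes that set or read the sex of a fly were used on both sides, and none of 10 was called. The dosage compensation RNAs roX1 (1.97) and roX2 (1.90), which coat the male X chromosome, were above their body level in each head library, as were Sxl (1.47) and fru (1.23). dsx (-0.99) and tra2 (-0.82) were below it. Of 5 yolk and eggshell genes compared, 1 was called on each side. The chorion gene Cp15 had at most 0.199 FPKM in heads and 6.05 to 7.84 FPKM in other parts (-3.79, SE 0.12). The yolk proteins, which are made by females, were low. Yp3, the highest, had 32.1 to 37.1 FPKM in heads and 2.47 to 3.06 FPKM in other parts (3.34, SE 0.06). Yp1 had 1.31, 1.64, 12.8, 1.42 and 2.70 FPKM in heads, against 0.0422, 0.240, 0.428, 0.0715 and 0.288 FPKM in other parts, and Yp2 likewise reached 9.40 FPKM in head replicate 3 and 0.455 to 1.23 FPKM in the other heads. Without head replicate 3 the log2 difference was 1.66 in place of 2.18 for Yp1 and 0.91 in place of 1.51 for Yp2.

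The antimicrobial peptide genes Mtk and Dro, named for their abundance, varied between pools. Other genes of this kind were not listed. Mtk (metchnikowin) had 5530, 7577, 4509, 6084 and 6391 FPKM in heads, against 310, 841, 1172, 694 and 1012 FPKM in other parts (3.01, SE 0.36). Dro (drosocin) had 3770, 4447, 2331, 3335 and 3432 FPKM in heads, against 103, 330, 541, 208 and 686 FPKM in other parts (3.47, SE 0.51). The call for Mtk was lost without head replicate 2 (2.92), head replicate 5 (2.98) or replicates 1 (2.70) and 4 (2.99) of the other parts. Relative to their level, both genes spread more between body pools than between head pools. CG1678 was the opposite case, with 4.73, 59.3, 319, 178 and 1.54 FPKM in heads, against 7755, 7255, 6263, 7508 and 7333 FPKM in other parts (-7.79, SE 1.43). No head value of CG1678 came near its body values. Among head genes known only by a number, CG8343 (11.11), CG12158 (11.34), CG8329 (10.997) and CG3088 (10.50) were the most different. CG12158 lies in a locus with 5 genes, and its head level was 2423 to 3017 FPKM beside 0 to 1.65 FPKM in other parts. CG34227 (8.02) ranged from 2203 to 2587 FPKM in heads and noe (5.21) from 2129 to 2395 FPKM.

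Within a library the ratio of a pair of related genes does not depend on how its table was scaled, so 16 such pairs were compared. In all 16 the 5 ratios in heads did not overlap the 5 in other parts. Other gene pairs were not counted, and these were chosen with earlier results known. The count of pairs without overlap is therefore only a description. The 3 opsin pairs rest on values near 0 in other parts and are not described further. Mean head levels were also below 0.5 FPKM for Pglym87 (0.310), Porin2 (0.394), eIF4E-3 (0.241), Prosalpha3T (0.474), RpL22-like (0.0398) and TpnC4 (0.231). The size of the head ratios of these genes therefore depends on the pseudocount. Several pairs set a testis copy against a general copy. The log2 ratio of betaTub85D to betaTub56D was -8.50 to -7.63 in heads and 0.75 to 1.12 in other parts, so that bodies held more of the testis tubulin than of the general tubulin. Pglym87 against Pglym78, an enzyme of glycolysis, averaged -8.69 in heads and -1.31 in other parts. Porin2 against porin, a channel of the outer mitochondrial membrane, averaged -8.98 in heads and -1.43 in other parts. eIF4E-3 against eIF-4E, the cap-binding protein, averaged -7.56 in heads and -0.44 in other parts. The proteasome subunit pairs Prosalpha6T and Pros35 (-4.29 in heads, -0.86 in other parts) and Prosalpha3T and Pros29 (-6.21 in heads, -3.82 in other parts) moved the same way. So did the ribosomal pair RpL22-like and RpL22, the cytochrome pair Cyt-c-d and Cyt-c-p, and eIF4G2 and eIF4G.

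The remaining pairs showed muscle and neuron. TpnC4 against TpnC41C, troponins of flight and other muscle, averaged -5.05 in heads and 0.46 in other parts, and the flight muscle actin Act88F against Act57B averaged -5.23 in heads and -3.83 in other parts. Ef1alpha100E against Ef1alpha48D, both genes for elongation factor 1 alpha, ran the other way at -2.49 in heads and -5.76 in other parts. nrv3 against nrv2, sodium pump subunits marking neurons and glia, averaged 1.08 in heads and -1.24 in other parts.

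**Figure D5:**
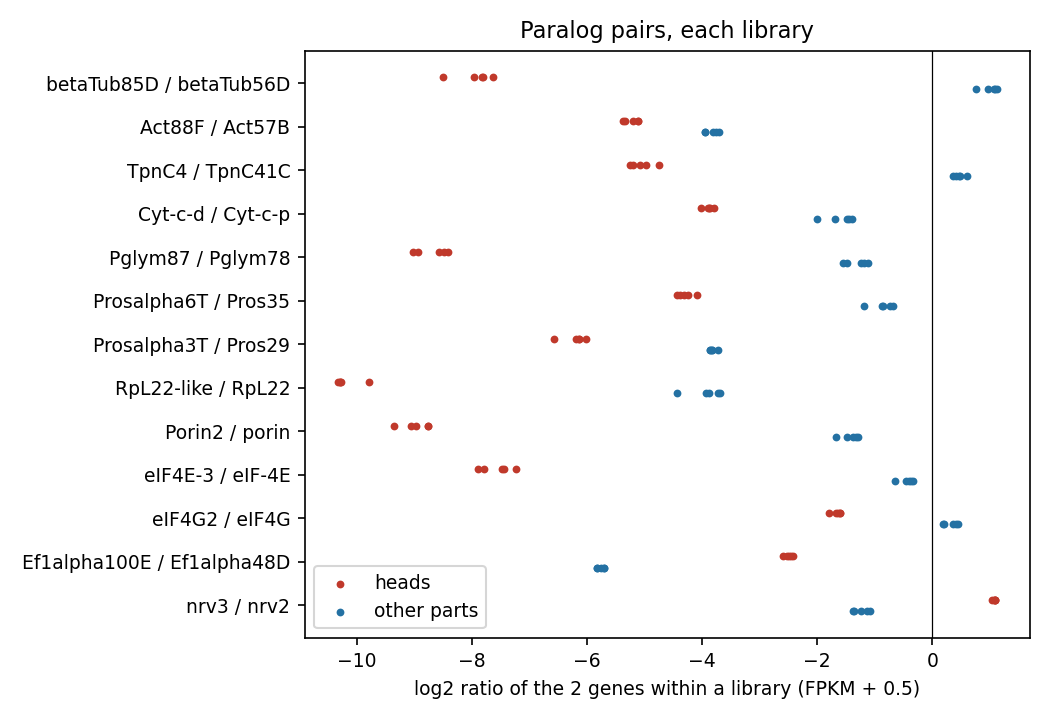
Log2 ratio of 2 related genes within each library for 13 pairs, heads in red and other parts in blue, 5 points each. In 11 pairs the heads lie to the left of the other parts (betaTub85D against betaTub56D, -8.50 to -7.63 in heads and 0.75 to 1.12 in other parts), and in the lowest 2 to the right.

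The called genes were not spread evenly over the chromosomes. On the small chromosome 4, 13 of 90 compared genes (14.4%) were higher in heads and 3 (3.33%) in other parts, against 4.23% and 20.9% over all genes. The 13 were CG9935, toy, ey, onecut, dpr7, CG32017, CG1909, mGluRA, CR44024, sv, Actbeta, Lin29 and Syt7, among them the Pax genes toy, ey and sv, the glutamate receptor mGluRA and the synaptotagmin Syt7. onecut, a transcription factor of neurons and photoreceptors, had 47.4 to 52.6 FPKM in heads and 2.54 to 3.11 FPKM in other parts (3.92, SE 0.05). On the X chromosome 104 of 1961 genes (5.30%) were higher in heads and 326 (16.6%) in other parts. Chromosome arm 2L was at the other end, with 84 of 2405 (3.49%) in heads and 619 (25.7%) in other parts. These shares are descriptions, and neighbouring genes are not independent.

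Gene classes differed as well. Of 338 long noncoding RNA genes, 4 were higher in heads and 142 (42.0%) in other parts, beside 519 and 2440 of 11711 protein-coding genes. Genes known only by a CG or CR number made up 45.1% of the genes higher in heads and 78.1% of those higher in other parts, with 54.5% among all genes compared. The body-high set is thus mostly unnamed, 2047 of 2621 genes. MicroRNA and small nucleolar RNA genes appear in the table too, but their levels are uncertain after poly(A) selection and were not interpreted.

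The same comparison in libraries not used above gave nearly the same genes. Heads and other parts of the sons of restrained dATF-2KO fathers, 5 and 5 separate libraries in the same tables, gave 543 genes higher in heads (4.30%) and 2613 higher in other parts (20.7%) of 12629. Of these, 510 were shared on the head side, which is 95.9% of the unrestrained and 93.9% of the restrained list. On the body side 2572 were shared, 98.1% of the unrestrained and 98.4% of the restrained list. The sign was the same for 532 of 532 head-high and 2620 of 2621 body-high genes. Yolk and eggshell genes were uneven in the restrained libraries. Yp1 ranged from 1.08 to 499 FPKM in restrained heads (mean 101) and from 0.242 to 486 FPKM in restrained other parts (mean 97.4). Cp15 ranged from 6.21 to 1057 FPKM in restrained other parts (mean 217). In each case a single library held nearly all of the summed level. The cause was not tested. Heads of unrestrained w1118 fathers' sons set against the same 5 body libraries gave 526 genes higher in heads and 2629 higher in other parts. These are not a separate check of the bodies, since the body libraries were shared.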

How the data were processed

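Males were pooled by 50, frozen and shaken to part heads from other parts, and poly(A)+ RNA was sequenced. The kit and sequencer differ between the labels and the published methods, and the age between them and the series description. The authors mapped reads to dm3 with TopHat2 and deposited FPKM values from Cufflinks and Cuffnorm (CASAVA is also named in the submitters' processing notes), scaled within each table. Their versions and the annotation were not given in the sources used here. Groups came from the sample labels. The tables also hold the authors' own comparisons of restrained with unrestrained groups (means, ratios, p-values, q-values), which were not used. A further 12 columns of library values, in a table of another cross, were not used.

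Genes were joined on their symbol, and differences of mean log2(FPKM + 0.5) were computed with Python 3.11.15, numpy 2.4.6 and pandas 2.3.3 for genes averaging 1 FPKM or more. A call needed 8-fold and no overlap. No test was run between tables scaled separately. The rule named the 10 called genes most different and the 10 most abundant on each side, up to 4 members of each list by mean level, the Hox genes, the opsins, the paralog pairs and Atf-2, 160 genes in all. Other genes named were chosen after their values were seen. Genes and lists were chosen with earlier results of these data known. Of the list symbols, 30 were matched under an older name and 8 had no match or were repeated. Loci are as the tables give them, and 5659 compared genes share theirs with other genes, so that reads could be split between them. Alternatives were other pseudocounts, filters, folds, scalings and leaving out each library.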

Additional observations from a re-analysis of the deposited data

Results flagged for a closer look

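In 29 of 399 groups of 5 libraries, counting each named gene and each list sum on each side, a single library lay far from the other 4 by Dixon's criterion, which chance alone meets in about 5% of groups. Replicate 3 of the other parts was that library in 10 of the 29. In FPKM, it was the highest for Hml (31.8, others 21.0 to 22.6), Mhc (419, others 348 to 368), Ubx (9.15, others 7.87 to 8.11), VAChT (2.94, others 1.83 to 2.03), brp (6.88, others 5.65 to 5.97) and noe (78.2, others 55.5 to 60.3). It was the lowest for Mst77F (656, others 765 to 808), Pdf (2.83, others 4.50 to 5.14), Pros29 (142, others 158 to 163) and Tret1-1 (323, others 345 to 351). Head replicate 3 was the highest for the yolk protein genes, which males make little of: Yp1 (12.8, others 1.31 to 2.70), Yp2 (9.40, others 0.455 to 1.23), Yp3 (37.1, others 32.1 to 32.9) and yolk and eggshell sum (63.3, others 37.8 to 40.6). Head replicate 1 was the lowest for Eaat2 (147, others 161 to 163), Hdc (23.0, others 25.4 to 25.9), per (32.0, others 34.3 to 35.2) and head patterning sum (176, others 186 to 190), and the highest for desat1 (1341, others 1278 to 1295) and oenocyte sum (1345, others 1281 to 1296).

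The remaining values came from other libraries. Replicate 5 of the other parts was the highest for Mf (4206, others 3962 to 4009), glia sum (1038, others 1002 to 1007) and flight muscle sum (4635, others 4357 to 4413). Replicate 1 of the other parts was the lowest for PebIII (1170, others 1264 to 1294) and fru (10.5, others 11.6 to 12.0). Head replicate 4 was the highest for Scr (5.30, others 5.00 to 5.08). Replicate 2 of the other parts was the lowest for eIF-4E (145, others 148 to 149) and kl-2 (1.1005, others 1.41 to 1.53). Head replicate 4 was the lowest for ejaculatory duct and bulb sum (4691, others 4803 to 4845). The cause of these departures was not tested.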

How the results depend on the processing

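No paired analysis was possible because no source says that a head pool and a body pool of the same number came from the same flies, and the results come from no test. At 4-fold 990 genes, and at 16-fold 162 genes, were higher in heads in place of 532, which follows from the threshold, while the body count was 3191 and 2155. Leaving out each library in turn gave 527 to 540 genes in heads and 2614 to 2637 in other parts. A pseudocount of 0.1 gave 693 and 2911 genes, a pseudocount of 1 gave 414 and 2338, and a minimum of 5 FPKM gave 496 and 2314. Scaling moved the median of all genes from -0.22 to 0.33 with equal FPKM sums (763 and 2438 genes) and to -0.06 with ribosomal proteins set to 0 (611 and 2552). With equal sums Atf-2 (3.12), Gad1 (3.12), Vmat (3.16), per (3.40) and elav (3.51) passed 8-fold in heads, and Mf (-2.69), Cyt-c-d (-2.76) and aly (-2.92) no longer did in bodies. With a pseudocount of 1, Ubx (-2.96), abd-A (-2.67), Cp15 (-2.93), Prosalpha3T (-2.98), aly (-2.34), VGAT (2.92), oc (2.72) and repo (2.86) fell short. The genes nearest the threshold changed side when single libraries were left out: Ef1alpha100E ranged down to 2.98, beat-VI up to 3.03, CG34332 up to -2.88 and isopeptidase-T-3 down to -3.07. With a pseudocount of 0.1, nos (-4.99), AGO3 (-3.21), vas (-3.74) and can (-3.40) passed 8-fold in bodies, and tj (3.31), Yp1 (3.26) and elav (3.04) in heads. Ubx, abd-A, aly, bgcn, Npc1b and Cp15 were not compared at a minimum of 5 FPKM. No called gene named here changed sign under the alternatives of pseudocount, filter, scaling or left-out library, while in the restrained libraries 2620 of 2621 body-high genes kept theirs. All 16 paralog pairs were also without overlap with a pseudocount of 0.1, again with no background of other pairs. Depth limits genes near 0, whose differences follow the pseudocount.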
